A study of Mus musculus with 6 samples.

Results

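Nuclei with RNA of the dividing cell were singled out in single-nucleus RNA libraries of mouse kidney cortex and were followed by lineage. A nucleus was counted as cycling where its UMIs (unique molecular identifiers, 1 per captured RNA molecule) of Top2a, Mki67, Cenpf and Prc1 summed to 3 or more over 2 or more of these genes. That rule found 612 of 61939 kept nuclei, which are barcodes with 300 or more genes and at most 5% mitochondrial UMIs. The knockout mice carried Podocin-Cre and Klf4 fl/fl, so that Cre acts in podocytes and deletes Klf4, a zinc finger transcription factor, there. The control mice carried Klf4 fl/fl without Cre. Both groups were FVB/N, neither age nor treatment is given in the labels, and each group held 3 libraries made on the 10x Chromium system. The labels do not say which animals or preparations the libraries came from, so p-values measure the spread between these libraries.

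The 4 genes that chose the nuclei serve the end of the cell cycle. Top2a untangles replicated DNA, Mki67 coats mitotic chromosomes, Cenpf sits at the kinetochore, and Prc1 bundles the microtubules of the central spindle. Most epithelial cells of the adult kidney rest outside the cycle, and tubule cells re-enter it after injury, which is how lost tubule epithelium is replaced. Podocytes of the glomerulus rarely divide, while parietal cells, which line Bowman's capsule, can proliferate in glomerular disease. Genes of G2 and M phase are held down in resting cells by the DREAM complex, which sits at CHR and CCAAT elements of their promoters, and are driven in dividing cells by B-Myb and FOXM1.

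The promoters of the 4 genes are shown because their RNA chose every cycling nucleus. The sequences are from RefSeq on build GRCm38.p6, each holding 250 bases before and 50 bases after the annotated start, 5′ to 3′ on the gene's strand. Capitals mark CCAAT, and TTTGAA or TTCGAA, the core letters of the CHR element, on either strand (ATTGG and TTCAAA on the other one). The letters of both motifs shared 0 bases in each of the 4 promoters.
Top2a, chr11:99024140-99024439, minus strand: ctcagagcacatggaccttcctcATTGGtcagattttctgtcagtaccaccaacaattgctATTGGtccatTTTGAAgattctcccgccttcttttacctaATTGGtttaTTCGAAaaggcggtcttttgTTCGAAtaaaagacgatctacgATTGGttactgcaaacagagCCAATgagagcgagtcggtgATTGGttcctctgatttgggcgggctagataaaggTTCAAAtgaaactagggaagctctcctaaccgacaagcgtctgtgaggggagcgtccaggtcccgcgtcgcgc
Mki67, chr7:135716330-135716629, minus strand: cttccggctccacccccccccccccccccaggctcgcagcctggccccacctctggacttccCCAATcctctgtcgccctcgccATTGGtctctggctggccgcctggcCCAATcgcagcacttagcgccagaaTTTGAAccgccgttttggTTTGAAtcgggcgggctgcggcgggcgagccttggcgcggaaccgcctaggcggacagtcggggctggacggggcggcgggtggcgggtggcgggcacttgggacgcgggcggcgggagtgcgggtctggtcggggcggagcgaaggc
Cenpf, chr1:189688037-189688336, minus strand: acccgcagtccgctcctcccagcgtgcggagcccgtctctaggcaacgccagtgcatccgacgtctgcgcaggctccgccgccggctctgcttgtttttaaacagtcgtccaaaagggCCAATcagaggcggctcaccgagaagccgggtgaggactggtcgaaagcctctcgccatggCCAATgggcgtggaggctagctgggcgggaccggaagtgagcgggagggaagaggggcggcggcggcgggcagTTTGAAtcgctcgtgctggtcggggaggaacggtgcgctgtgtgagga
Prc1, chr7:80294201-80294500, plus strand: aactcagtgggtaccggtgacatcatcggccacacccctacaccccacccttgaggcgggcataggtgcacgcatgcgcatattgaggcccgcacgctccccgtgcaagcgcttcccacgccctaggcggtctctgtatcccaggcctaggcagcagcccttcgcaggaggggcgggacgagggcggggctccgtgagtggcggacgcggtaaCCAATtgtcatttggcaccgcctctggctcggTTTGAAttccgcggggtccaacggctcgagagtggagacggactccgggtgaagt
All 4 promoters held both motifs. CCAAT was found 6 times in Top2a, 3 times in Mki67, 2 times in Cenpf and 1 time in Prc1, and the CHR letters 4, 2, 1 and 1 times in the same order. In the list of 36 G2 and M genes, 32 were matched to a promoter, and 24 of these (75.0%) held the CHR letters, against 21.7% of 27025 genes. CCAAT was found in 22 of the 32 (68.8%), against 41.1% of all genes. In the list of 30 S-phase genes, 23 were matched, and 7 (30.4%) held the CHR letters while 18 (78.3%) held CCAAT. A match of letters is a description of the sequence and not a bound site.

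The libraries differed in size and in free RNA. The knockout libraries held 22069, 5082 and 6064 kept nuclei in library order, and the control libraries 19645, 3845 and 5234. Total UMIs ran between 9356394 and 52478581 in knockout libraries and between 8270961 and 62016616 in control libraries. Control library 1 stood apart in mitochondrial UMIs, with a median of 2.503% in its other nuclei, against at most 0.135% in the other control libraries. Knockout library 1 stood at 1.03%, against at most 0.163% in the other knockout libraries. Of the 61473 barcode sequences kept, 461 occurred in 2 or more libraries, and 0 cycling barcodes were cycling in 2 libraries. Tubule RNA was present in every nucleus type. Nuclei rich in podocyte, endothelial, stromal or immune markers held 46.1% to 80.6% of the median tubule marker share in knockout libraries and 46.2% to 87.9% in control libraries. Klf4 gave 12, 1 and 3 UMIs in nuclei assigned to podocytes of knockout libraries 1 to 3, and 2, 1 and 1 UMIs in those of control libraries. The labels do not give the deleted exons and the reads are 3′ tags, so these UMIs do not check the genotype.

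Cycling nuclei made up a larger share of every knockout library than of any control library. In knockout libraries 1 to 3 they numbered 273, 124 and 178, or 1.24%, 2.44% and 2.94% of kept nuclei. In control libraries they numbered 20, 5 and 12, or 0.102%, 0.130% and 0.229%. The lowest knockout share lay above the highest control share, and the groups did not overlap. The 95% Clopper-Pearson interval of the lowest knockout share ran between 1.10% and 1.39%, and that of the highest control share between 0.119% and 0.4001%. These intervals cover counting error only. The mean was 2.20% ± 0.873 in knockout libraries and 0.154% ± 0.0669 in control libraries (SD, n = 3 each), a difference of 2.05 percentage points and a ratio of 14.3. The two-sided exact permutation test over the 20 assignments of libraries gave p = 0.1, which is the smallest p that 3 libraries against 3 allow. The difference was 1.14 points between the libraries numbered 1 and 2.51 points between the means of the libraries numbered 2 and 3. Since the rule was proposed with earlier results of these libraries known, the test describes these 6 libraries.

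**Figure D1:**
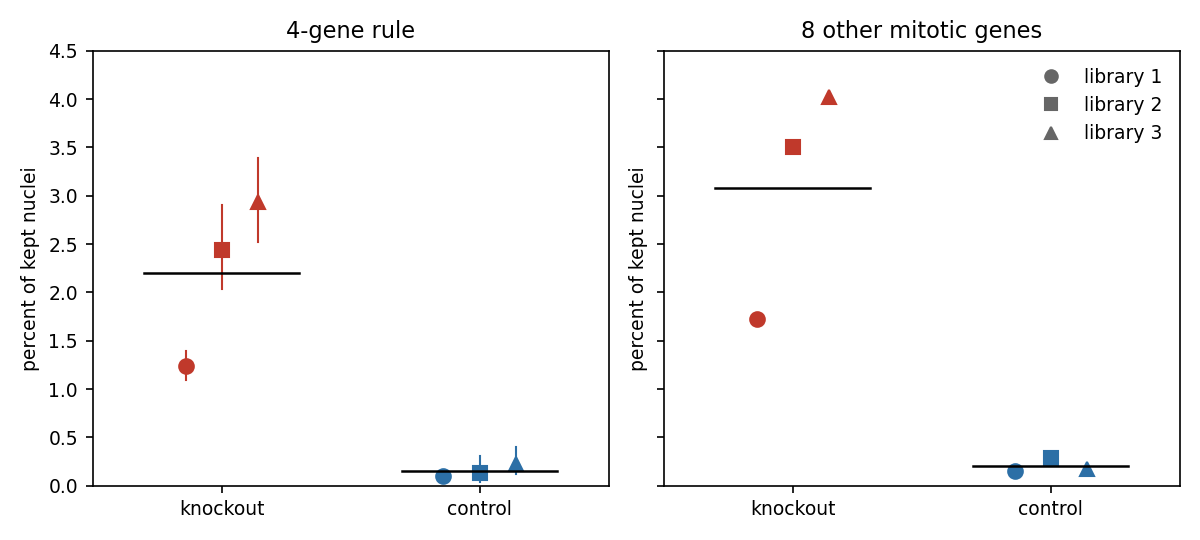
Percent of kept nuclei that meet the 4-gene rule (left) and that meet the same thresholds on 8 other mitotic genes (right), by library; points are libraries, black lines are group means and thin bars on the left are 95% Clopper-Pearson intervals. Knockout libraries sit between 1.24% and 2.94% by the rule and control libraries between 0.102% and 0.229%.

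The share depended on how many UMIs were asked for, and the groups stayed apart. Of the 575 cycling nuclei of knockout libraries, 206 lay at exactly 3 UMIs, 135 of them with 2 genes. Just outside the rule were 222 knockout nuclei with 2 UMIs over 2 genes and 38 with 3 or more UMIs of 1 gene. Of the 37 cycling nuclei of control libraries, 10 lay at 3 UMIs, and 16 and 4 nuclei lay just outside. With 5 or more UMIs over 3 or more genes the shares were 0.299%, 0.571% and 1.09% in knockout libraries and 0.0509%, 0.0780% and 0.0764% in control libraries. Cycling nuclei of knockout libraries were deeper than the rest. Their median was 3325, 2365.5 and 2857 UMIs in knockout libraries, against 1626.5, 1297 and 1495 in the other nuclei of the same libraries. In control libraries the medians were 4091.5, 3357 and 1655.5 UMIs in cycling nuclei against 2121, 1112.5 and 1819 in other nuclei, so library 3 had the opposite order. When each nucleus was thinned to 2000 UMIs and shallower nuclei were left out, the shares were 0.993%, 2.71% and 2.64% in knockout libraries and 0.0653%, 0.176% and 0.174% in control libraries. At 1000 UMIs the shares were 0.2504%, 1.13% and 1.07% in knockout libraries and 0.0268%, 0.0961% and 0.148% in control libraries.

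Top2a was the gene most often seen in the cycling nuclei of knockout libraries. It had a UMI in 456 of the 575 (79.3%), Prc1 in 389 (67.7%), Cenpf in 354 (61.6%) and Mki67 in 349 (60.7%). In the 37 cycling nuclei of control libraries, Mki67 was detected in 86.5%, Cenpf in 70.3%, Top2a in 59.5% and Prc1 in 56.8%. These detection shares are what the rule selected on and are given as a description. Of all UMIs of the 4 genes, 55.5% lay in cycling nuclei of knockout libraries and 36.6% in those of control libraries, so that much of the RNA of these genes fell in nuclei below the thresholds.

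Genes that the rule did not use also separated the groups. A panel of 8 other mitotic genes was read with the same thresholds: the spindle motors Kif11, Kif15 and Cenpe, the checkpoint kinase Bub1b, the kinetochore scaffold Knl1, the spindle pole protein Aspm, and Anln and Ect2, which build the cleavage furrow. It was met by 1.73%, 3.50% and 4.02% of kept nuclei in knockout libraries, against 0.148%, 0.286% and 0.172% in control libraries. The mean was 3.08% ± 1.204 in knockout libraries and 0.202% ± 0.0739 in control libraries (SD, n = 3 each), with an exact permutation p = 0.1, again the smallest possible. Within knockout libraries, the panel was met by 68.1%, 75.8% and 76.4% of the cycling nuclei, against 0.895%, 1.69% and 1.83% of the other nuclei. Panel RNA was not confined to nuclei that met the rule. Among other nuclei, 7.19%, 9.74% and 10.3% held a panel UMI in knockout libraries, against 3.97%, 4.40% and 5.06% in control libraries. These shares did not overlap between the groups. They were not thinned, and the part of depth was not tested. The median depth of the other nuclei was 1297 to 1626.5 UMIs in knockout libraries and 1112.5 to 2121 UMIs in control libraries.

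Lineage was read from marker UMIs above the level of free RNA. A nucleus was given the lineage whose marker UMIs were least likely under the free-RNA share of its library (Poisson tail of 0.01 or less, with 2 or more UMIs), and was left unassigned where no list passed. Of the 575 cycling nuclei of knockout libraries, 296 (51.5%) were unassigned, 177 (30.8%) were tubule, 36 (6.26%) endothelial, 35 (6.09%) carried 2 lineages, 11 (1.91%) parietal, 8 (1.39%) stromal, 7 (1.22%) immune and 5 (0.870%) podocyte. The 37 cycling nuclei of control libraries fell as 18 unassigned, 3 tubule, 5 endothelial, 6 with 2 lineages, 0 parietal, 1 stromal, 3 immune and 1 podocyte. These counts depend on the free-RNA level, which was changed after the data were seen. Under the planned level 387 (67.3%) of the 575 were unassigned, 47 (8.17%) tubule, 49 (8.52%) endothelial and 14 (2.43%) parietal. By the highest marker ratio alone, with no test against free RNA, 188 (32.7%) were parietal, 135 (23.5%) tubule, 95 (16.5%) immune and 78 (13.6%) endothelial. The unassigned cycling nuclei had a median of 2344 UMIs in knockout libraries, and the tubule cycling nuclei one of 4871, and the part of depth in the assignment was not tested. Summed markers of the proximal tubule made up 98.1 of 10000 UMIs in unassigned cycling nuclei and 149.9 in tubule cycling nuclei of knockout libraries.

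The tubule lineage held cycling nuclei in every knockout library. They were 54 of 6536 (0.826%), 28 of 2278 (1.23%) and 95 of 4118 (2.31%) in knockout libraries, against 0 of 4185, 1 of 1230 (0.0813%) and 2 of 3913 (0.0511%) tubule nuclei in control libraries. Unassigned nuclei cycled at 1.22%, 3.49% and 5.21% in knockout libraries and at 0.0964%, 0.143% and 0.306% in control libraries. Neither lineage overlapped between the groups. The tubule difference was 1.41 percentage points, and 0.786 under the planned free-RNA level. For each class the exact permutation test gave p = 0.1, or 0.16 after Benjamini-Hochberg adjustment over 8 classes. Of the tubule cycling nuclei of knockout libraries, 125 of 177 (70.6%) met the 8-gene panel, against 109 of 12755 (0.855%) other tubule nuclei. Over all libraries, 26.1% of tubule cycling nuclei were among the highest Scrublet doublet scores, against 12.3% of all tubule nuclei. With those scores removed, 130 tubule cycling nuclei of knockout libraries remained and the tubule difference was 1.18 points. The part of doublets in the tubule share was not tested.

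Cycling nuclei of knockout libraries were assigned to every segment of the tubule. Among tubule nuclei of knockout libraries, 86 of 6386 proximal nuclei (1.35%), 26 of 3016 nuclei of the thick ascending limb (0.862%), 31 of 2462 of the distal and connecting tubule (1.26%) and 34 of 1026 of the collecting duct (3.31%) were cycling. Proximal nuclei cycled at 0.484%, 0.790% and 2.68% in knockout libraries 1 to 3, against 0%, 0% and 0.0374% in control libraries. Library 3 supplied 63 of the 86 proximal cycling nuclei. Collecting duct nuclei cycled at 2.78%, 2.27% and 4.48% in knockout libraries, where the middle share is 1 of 44 nuclei, and 0 of 923 collecting duct nuclei cycled in control libraries. Nuclei of the distal and connecting tubule cycled at 0.817%, 2.45% and 0.862% in knockout libraries and at 0%, 0% and 0.204% in control libraries. The thick ascending limb gave 0.679%, 0.457% and 1.36% in knockout libraries and 0%, 0.232% and 0% in control libraries. The segment of a nucleus was the marker list with the smallest Poisson tail against free RNA, at 2 or more UMIs. The free-RNA level was 0 for collecting duct markers in every library and for distal and connecting markers in knockout library 2. At a level of 0, any 2 UMIs of a list gave the smallest possible tail, so free RNA set no bar there. Tubule cycling nuclei of knockout libraries had a median of 4871 UMIs, against 1785 in other tubule nuclei. The part of depth in the segments and the order of segments were not tested.

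**Figure D2:**
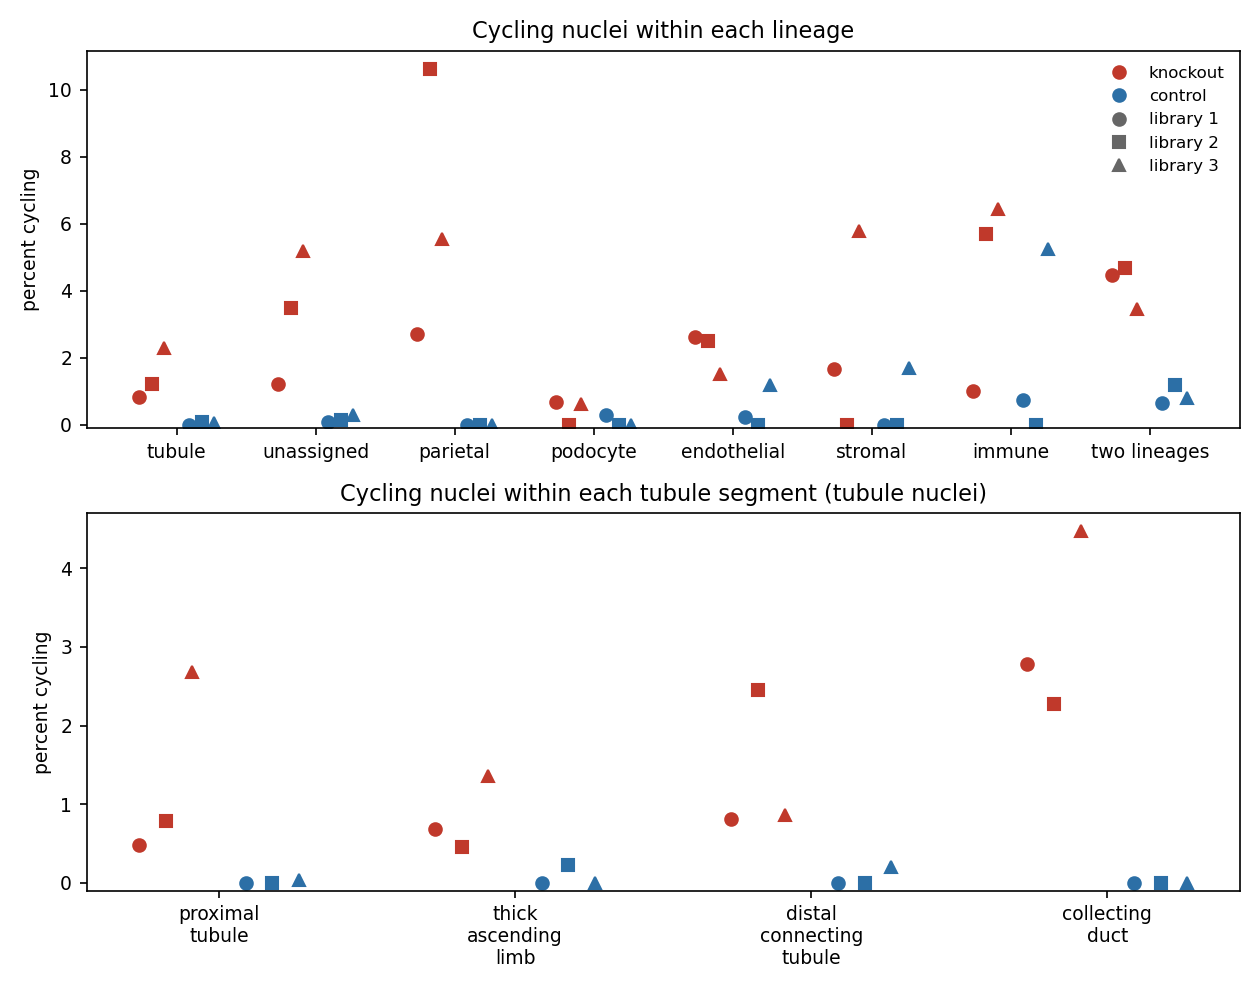
Percent of nuclei that meet the cycling rule within each lineage (top) and within each tubule segment (bottom), by library; red points are knockout and blue points control libraries, and shapes are library numbers. Knockout points of the tubule, unassigned, parietal, endothelial and 2-lineage classes lie above every control point, and those of the podocyte, stromal and immune classes do not.

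The parietal and endothelial classes did not overlap between the groups as assigned, and both rest on few cycling nuclei. Parietal nuclei cycled at 4 of 148 (2.70%), 5 of 47 (10.6%) and 2 of 36 (5.56%) in knockout libraries, against 0 of 66, 0 of 5 and 0 of 14 in control libraries. The 0 of 85 parietal nuclei of all control libraries allows a share of up to 3.53%, which lies above the lowest knockout share. The exact upper limits of the 3 control libraries were 5.44%, 52.2% and 23.2%, so a lower parietal share in control libraries was not detectable at this depth. The parietal difference was 6.30 percentage points, and 4.13 without knockout library 2. All 11 parietal cycling nuclei met the 8-gene panel, as did 9 of 220 (4.09%) other parietal nuclei of knockout libraries. Their assignment rested on Ncam1, a neural cell adhesion molecule, which gave 29 of their 37 parietal marker UMIs. Cldn1, Wt1 and Dkk3 gave 4, 3 and 1 UMIs and Aldh1a2 gave 0, and 5 of the 11 nuclei held a UMI of any of these 4. Cdh6, a cadherin of the developing nephron, had a UMI in 8 of the 11 (72.7%), against 74 of 220 (33.6%) other parietal nuclei. Cd44, a hyaluronan receptor of activated parietal cells, had a UMI in 4 of the 11 (36.4%), against 49 of 220 (22.3%). The median depth was 2230 UMIs in these cycling nuclei and 1627.5 UMIs in the other parietal nuclei of knockout libraries.

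Endothelial nuclei cycled at 28 of 1066 (2.63%), 5 of 199 (2.51%) and 3 of 197 (1.52%) in knockout libraries, against 2 of 862 (0.232%), 0 of 261 and 3 of 254 (1.18%) in control libraries. The exact permutation p was 0.1 for parietal and for endothelial nuclei, or 0.16 adjusted over 8 classes. The endothelial difference was 1.75 points. With a Poisson tail of 0.001 or less it was 0.866 points (exact permutation p = 0.3), and with 3 or more marker UMIs 1.52 points (exact permutation p = 0.2), so the separation of the endothelial groups ended under both. Without knockout library 1 or 2 the exact permutation p was 0.2. Emcn, a sialomucin of capillary endothelium, or Flt1, a VEGF receptor, had a UMI in 30 of the 36 endothelial cycling nuclei of knockout libraries. Summed endothelial markers reached 13.7 of 10000 UMIs in endothelial cycling nuclei and 27.4 in the other endothelial nuclei of knockout libraries. Havcr1, a receptor of injured proximal tubule, had a UMI in 9 of the 36 (25.0%), against 81 of 1426 (5.68%) other endothelial nuclei. The median depth was 2897.5 UMIs in these cycling nuclei and 1584 UMIs in the other endothelial nuclei, and the part of depth in this share was not tested. Of the 41 endothelial cycling nuclei of all libraries, 24.4% were among the highest Scrublet doublet scores, against 9.69% of all endothelial nuclei, and the part of doublets in this share was not tested.

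Podocyte, stromal and immune nuclei overlapped between the groups. Podocyte nuclei cycled at 4 of 574 (0.697%), 0 of 110 and 1 of 162 (0.617%) in knockout libraries, against 1 of 322 (0.311%), 0 of 106 and 0 of 56 in control libraries, with an exact permutation p = 0.4. Stromal nuclei cycled at 1.67%, 0% and 5.80% in knockout libraries and at 0%, 0% and 1.69% in control libraries (exact permutation p = 0.7), a difference of 1.93 points that was 0.272 points without knockout library 3. Immune nuclei cycled at 1.02%, 5.71% and 6.45% in knockout libraries and at 0.741%, 0% and 5.26% in control libraries (exact permutation p = 0.2). Ptprc, the pan-leukocyte phosphatase, had a UMI in 5 of the 7 immune cycling nuclei of knockout libraries. These classes rest on 1 to 8 cycling nuclei per group, and a p that misses the threshold does not show that the shares are alike.

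Nuclei with markers of 2 lineages cycled at 20 of 446 (4.48%), 6 of 128 (4.69%) and 9 of 260 (3.46%) in knockout libraries, against 3 of 450 (0.667%), 1 of 84 (1.19%) and 2 of 247 (0.810%) in control libraries (exact permutation p = 0.1, adjusted 0.16). The cycling ones had a median of 18764 UMIs over all libraries, and 19 of these 41 paired endothelial with tubule markers. Scrublet scores set at 0.8% of nuclei per 1000 barcodes removed 29.7%, 7.26% and 9.55% of cycling nuclei in knockout libraries 1 to 3, against 17.4%, 3.68% and 4.83% of all nuclei there. After that removal the cycling shares were 1.05%, 2.35% and 2.79% in knockout libraries and 0.0957%, 0.134% and 0.238% in control libraries.

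The genes of cycling nuclei were compared with those of other nuclei of the same knockout libraries. Nuclei called tubule or unassigned were used, which were 210, 106 and 157 cycling nuclei and 19093, 4408 and 5152 others. The others include 1819, 302 and 264 injured nuclei, with 2 or more UMIs of Havcr1, Vcam1, Dcdc2a or C3, which are also compared separately below. UMIs were summed per library and tested with edgeR's quasi-likelihood test with the library as a block. The rule genes and the lineage markers were left out. Of 13231 genes, 654 (4.94%) rose and 475 (3.59%) fell in cycling nuclei, or 8.53% in either direction, at a Benjamini-Hochberg adjusted p under 0.05. DESeq2 called 440 that rose and 126 that fell, all 566 of them among those of edgeR. Restricted to nuclei with tubule markers above free RNA, 293 rose and 178 fell, and without the library block 217 rose and 2 fell. Leaving out knockout library 2 left 246 that fell, and leaving out knockout library 3 left 186, so that the number that fell rests on those libraries. Cycling nuclei were deeper, and against nuclei at or above the lower quartile of cycling depth, 616 rose and 458 fell.

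The machinery of mitosis rose as a whole. All 36 tested genes of the G2 and M list rose, with a median log2 fold change of 3.95, against a median of -0.04 over all genes tested. These genes share the phase of the cycle with the rule genes, so their rise checks the rule and is not a separate finding. Summed, they made up 25.6, 47.9 and 43.0 of 10000 UMIs in cycling nuclei of knockout libraries 1 to 3, against 2.58, 4.63 and 4.58 in other nuclei. Library 1 was the lowest of the 3 among cycling nuclei. Knl1 stood at 155.8, 342 and 261 UMIs per 1000000 (CPM) in cycling nuclei and at 8.45, 20.6 and 15.4 CPM in other nuclei, with a log2 fold change of 4.07 ± 0.13 (SE; edgeR adjusted p = 4.28e-93). Diaph3, a formin that shapes the contractile ring, had 182, 404 and 289 CPM in cycling nuclei against 12.3, 25.9 and 19.8 CPM in other nuclei. Tpx2, which activates Aurora A on the spindle, had 112, 219.5 and 217 CPM in cycling nuclei against 4.77, 11.2 and 12.3 CPM in other nuclei. None of these overlapped between the classes.

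The gene with the smallest p, leaving out clone names, was Lockd, a long noncoding RNA downstream of the p27 gene Cdkn1b. It had 232, 304 and 292 CPM in cycling nuclei against 8.43, 16.2 and 12.0 CPM in other nuclei, with a log2 fold change of 4.53 ± 0.12 (SE; edgeR adjusted p = 2.49e-105). Cdkn1b itself, which encodes the CDK inhibitor p27, had 32.8, 49.8 and 52.2 CPM in cycling nuclei against 24.9, 24.5 and 24.8 CPM in other nuclei (log2 fold change 0.71 ± 0.20 SE, edgeR adjusted p = 0.00677). The call on Cdkn1b was lost without knockout library 2 (adjusted p = 0.0773) and without knockout library 3 (adjusted p = 0.278). The other genes among the 10 with the smallest p were Cenpp and Cenpe of the kinetochore, Anln, Ect2 and Cit of the cleavage furrow, and Cdca2, which targets a phosphatase to anaphase chromatin. Their log2 fold changes ran between 2.46 for Cit and 4.17 for Cdca2.

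Genes of DNA replication rose in part. Against 4.94% of all genes that rose and 3.59% that fell, 19 of 28 tested S-phase genes (67.9%) rose and 0 fell. The S-phase genes had a median log2 fold change of 1.72, and all 28 estimates were above 0. Their sum was 9.62, 15.4 and 12.3 of 10000 UMIs in cycling nuclei of knockout libraries and 2.91, 4.53 and 3.27 in other nuclei. Pola1, the catalytic subunit of DNA polymerase alpha, had 158, 307 and 183 CPM in cycling nuclei against 46.8, 95.5 and 60.0 CPM in other nuclei. Atad2, a chromatin factor of replicating DNA, had a log2 fold change of 2.27 ± 0.13 (SE), and Clspn, the checkpoint adaptor claspin, one of 3.21 ± 0.29 (SE). Of 20 genes of chromatin and the replication fork 19 (95%) rose, against the same 4.94%, with a median log2 fold change of 2.26. They included Ezh2, the Polycomb methyltransferase (2.35 ± 0.10 SE), the nuclear lamin Lmnb1 (2.70 ± 0.15 SE), and the condensin subunits Smc4 (2.10 ± 0.12 SE) and Ncapd2 (3.00 ± 0.18 SE). This list is not one of replication alone. It shares Smc4 and Hmgb2 with the G2 and M list, so it is not separate from that list. Without the library block 7 S-phase genes rose.

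Transcription factors that run the cycle rose with it. Of 10 tested, 9 (90%) rose, against 4.94% of all genes. Mybl2, which encodes B-Myb, had a log2 fold change of 0.30 (edgeR adjusted p = 0.765). Foxm1, the driver of G2 and M genes, had 16.8, 17.6 and 12.6 CPM in cycling nuclei against 0.826, 1.42 and 0.678 CPM in other nuclei (log2 fold change 4.09 ± 0.47 SE). E2f7, a repressor of E2F targets, had a log2 fold change of 3.47 ± 0.28 (SE), the activator E2f3 one of 0.70 ± 0.13 (SE), and Lin54, the DNA-binding subunit of DREAM, one of 1.37 ± 0.15 (SE). The G1 list mostly did not pass the test. Of its 10 tested genes, 2 (20%) rose and 1 (10%) fell, against 4.94% and 3.59% of all genes. The 2 that rose were E2f7 and E2f3, which the G1 list shares with the transcription factor list. Ccnd3, cyclin D3, fell to 46.9, 43.9 and 28.5 CPM in cycling nuclei, against 70.1, 57.8 and 46.8 CPM in other nuclei (log2 fold change -0.63 ± 0.17 SE, edgeR adjusted p = 0.00493). That call was lost without knockout library 1 (adjusted p = 0.135) and without library 3 (adjusted p = 0.0673).

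Of 11 tested genes that restrain the cycle, 3 (27.3%) rose and 0 fell, against 4.94% and 3.59% of all genes. The median log2 fold change of these 11 was 0.00. Rbl1, which encodes p107, a pocket protein of DREAM, had 48.7, 49.8 and 86.9 CPM in cycling nuclei against 16.5, 21.9 and 17.8 CPM in other nuclei (log2 fold change 1.70 ± 0.19 SE, edgeR adjusted p = 3.47e-15). Cdkn2c, which encodes the CDK4 and CDK6 inhibitor p18, had 25.7, 20.5 and 22.1 CPM in cycling nuclei against 3.73, 2.96 and 2.71 CPM in other nuclei (log2 fold change 2.80 ± 0.33 SE). Cdkn1b was the third. Cdkn1a, which encodes p21, the inhibitor induced by p53, had a log2 fold change of 0.03 (edgeR adjusted p = 0.992) and did not pass the test.

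**Figure D3:**
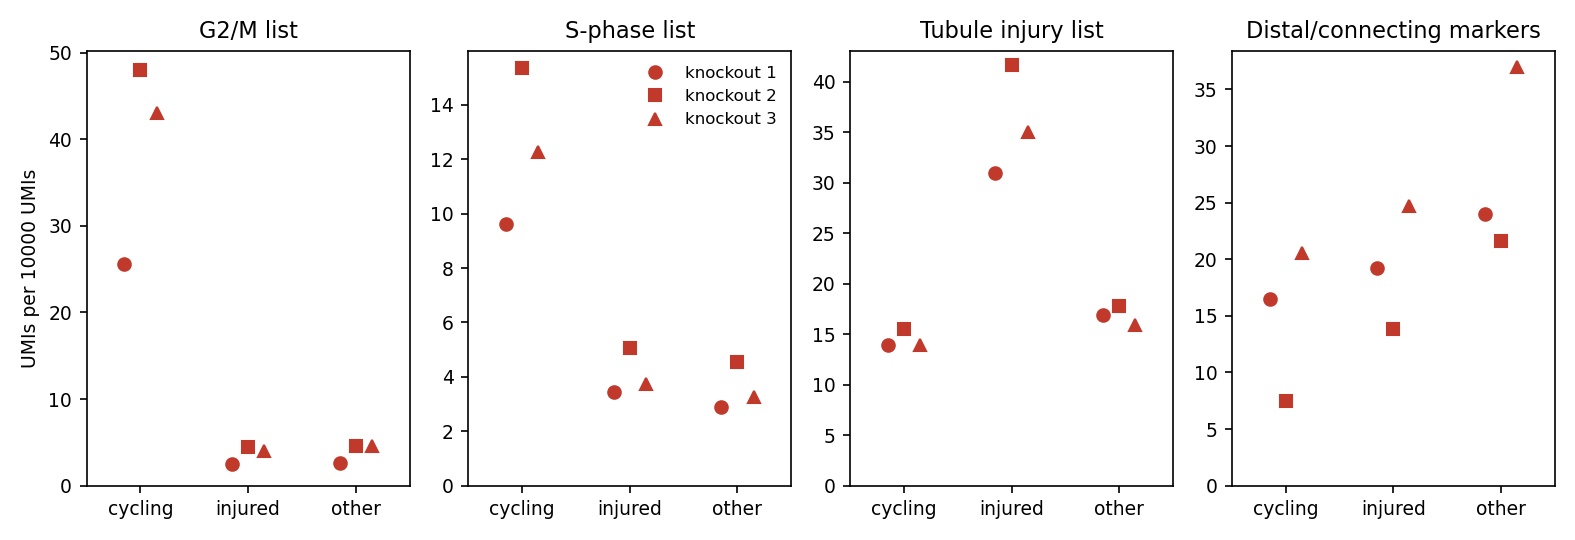
Summed UMIs of 4 gene lists per 10000 UMIs in cycling, injured and other nuclei called tubule or unassigned, in the 3 knockout libraries (shapes). The injured nuclei are also counted among the other nuclei. The G2 and M list runs between 25.6 and 47.9 in cycling nuclei and at most 4.63 in other nuclei, while the tubule injury list is highest in the injured nuclei, which were chosen on 4 of its genes.

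The 10 genes that fell with the smallest p were Cyp7b1, Rnf24, Gramd1b, Bcat1, Kcnip4, Kap, Fxyd2, Enox1, Slc6a15 and Napsa, with log2 fold changes between -1.25 and -0.72. Cyp7b1, an oxysterol hydroxylase, fell to 237, 328 and 253 CPM in cycling nuclei, against 383, 847 and 782 CPM in other nuclei (log2 fold change -1.25 ± 0.09 SE, edgeR adjusted p = 4.1e-30). Gramd1b, a sterol carrier of the endoplasmic reticulum, had 1235, 1692 and 933 CPM in cycling nuclei against 1627, 2635 and 1944 CPM in other nuclei. Kap, an androgen-regulated RNA of mouse proximal tubule, had 988, 442 and 643 CPM in cycling nuclei against 2033, 634 and 811 CPM in other nuclei. Bcat1, a branched-chain aminotransferase, had a log2 fold change of -1.19 ± 0.13 (SE) and did not pass the test in DESeq2 (adjusted p = 0.378).

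Some genes of tubule function fell. Of 25 other proximal transporters 10 (40.0%) fell and 0 rose, against 3.59% of all genes that fell, with a median log2 fold change of -0.24. Slc6a18, a neutral amino acid transporter, fell to 261, 319 and 300.3 CPM in cycling nuclei, against 316, 407 and 475 CPM in other nuclei (log2 fold change -0.48 ± 0.09 SE). Slco1a6, Slc22a19 and Slc22a7, carriers of organic anions, had log2 fold changes of -0.37, -0.77 and -0.94. Without knockout library 3 the calls on Slc6a18 (adjusted p = 0.05001) and Slc22a19 (log2 fold change -0.52, adjusted p = 0.204) were lost. Of 27 genes of fatty acid oxidation 5 (18.5%) fell and 0 rose, with a median of -0.21. Acadm, the medium-chain acyl-CoA dehydrogenase, fell to 115, 126 and 147 CPM in cycling nuclei, against 153, 218 and 250.03 CPM in other nuclei (log2 fold change -0.67 ± 0.11 SE). Ehhadh of the peroxisome had a log2 fold change of -0.47, which did not pass the test without knockout library 3 (adjusted p = 0.708). Among 12 tubule transcription factors, 2 (16.7%) passed the test, Ppara and Nr1h4, which fell by 0.31 and 0.23 on the log2 scale. The call on Nr1h4 was lost without any 1 of the libraries (adjusted p between 0.183 and 0.259) and in DESeq2 (0.226), and that on Ppara without knockout library 3 (adjusted p = 0.196) and in DESeq2 (0.0688). With the Scrublet removal 15 transporters and 8 oxidation genes fell, without knockout library 3 these counts were 3 and 2, and among nuclei with tubule markers above free RNA 4 and 4.

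Marker sums of the tubule segments differed between the classes as well. Distal and connecting tubule markers made up 16.5, 7.46 and 20.5 of 10000 UMIs in cycling nuclei, against 24.0, 21.6 and 36.9 in other nuclei. Thick ascending limb markers made up 21.3, 16.9 and 25.8 in cycling nuclei, against 29.4, 28.9 and 41.6 in other nuclei. Proximal markers made up 117, 117 and 154 in cycling nuclei, against 131, 141 and 168 in other nuclei. Each of these 3 sums was lower in the cycling nuclei of every knockout library. Collecting duct markers made up 2.43, 0.644 and 1.94 in cycling nuclei, against 2.27, 1.83 and 2.55 in other nuclei, so they were higher in library 1 and lower in libraries 2 and 3. The part of segment makeup and of free RNA in the decreases above was not tested. Fewer cells of a type and less RNA per cell cannot be told apart in sums of this kind.

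Genes of tubule injury did not rise in cycling nuclei against all other nuclei, which include the injured ones. Of the Havcr1 UMIs of other nuclei, 2074 of 2776, 218 of 289 and 171 of 219 lay in injured nuclei of knockout libraries 1 to 3. The decreases below are measured against this mix, and other nuclei without the injured ones were not tested. Of 17 tested injury genes 0 rose and 6 fell, with a median log2 fold change of -0.36, against 3.59% of all genes that fell. Vcam1, an adhesion molecule of tubule cells after failed repair, had 29.2, 11.7 and 7.90 CPM in cycling nuclei against 64.1, 34.8 and 20.5 CPM in other nuclei (log2 fold change -1.27 ± 0.22 SE, edgeR adjusted p = 1.21e-06). Spp1, osteopontin, had 94.7, 43.9 and 34.8 CPM in cycling nuclei against 158, 59.3 and 67.3 CPM in other nuclei, and did not pass the test against nuclei of like depth (log2 fold change -0.22, adjusted p = 0.456). Havcr1 had 31.9, 38.0 and 14.2 CPM in cycling nuclei against 65.5, 37.2 and 21.2 CPM in other nuclei (log2 fold change -0.79 ± 0.20 SE, edgeR adjusted p = 0.00266). In library 2 its order was reversed, with the higher value in cycling nuclei. Without knockout library 1 its log2 fold change was -0.31 (adjusted p = 0.752), and it was 0.42 under lineage by the highest marker ratio alone (adjusted p = 0.799). Itgb6, a subunit of the integrin that activates TGF-beta, had a log2 fold change of -0.30 ± 0.09 (SE), and its call was lost in DESeq2 (adjusted p = 0.122) and without knockout library 2 (0.0653) or 3 (0.208). Among nuclei with tubule markers above free RNA 1 of 15 tested injury genes fell, and without the library block 0 of 17.

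The injury panel of Havcr1, Vcam1, Dcdc2a and C3 was also counted per nucleus after thinning to 1000 UMIs. A panel UMI was held by 9.57%, 8.42% and 9.40% of cycling nuclei in knockout libraries 1 to 3, against 15.3%, 11.2% and 9.35% of other nuclei. Shallower nuclei were left out, which were 1, 11 and 8 cycling nuclei and 2501, 1322 and 1612 others. Before thinning the shares were higher in cycling nuclei of each library, at 37.6%, 22.6% and 21.0% of cycling nuclei against 24.6%, 17.8% and 15.0% of other nuclei. Other nuclei of control libraries held a panel UMI in 2.61%, 2.39% and 2.39% after thinning. For Havcr1 alone, before thinning, a UMI was held by 12 of 177 (6.78%) tubule cycling nuclei at a median of 4871 UMIs and 20 of 296 (6.76%) unassigned cycling nuclei at 2344 UMIs of knockout libraries. Among other nuclei of lineages that should lack it, the share was 24 of 352 (6.82%) in immune nuclei at 1459.5 UMIs, 81 of 1426 (5.68%) in endothelial nuclei at 1584 UMIs, 18 of 349 (5.16%) in stromal nuclei at 1349 UMIs and 63 of 841 (7.49%) in podocyte nuclei at 1366 UMIs. In other tubule nuclei of knockout libraries the share was 489 of 12755 (3.83%) at 1785 UMIs, and in other unassigned nuclei 1474 of 15898 (9.27%) at 1409.5 UMIs. Tubule cycling nuclei thus had a higher share than other tubule nuclei, and unassigned cycling nuclei a lower one than other unassigned nuclei. The parts of depth and of free RNA in these shares were not tested, and the Havcr1 share of the cycling nuclei is not read as expression.

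Of 10 genes of parietal activation 1 (10%) rose and 0 fell, against 4.94% and 3.59% of all genes, so the list is not read as changed. Egfr, the EGF receptor, had 512, 667 and 705 CPM in cycling nuclei against 440.4, 547 and 457.5 CPM in other nuclei (log2 fold change 0.32 ± 0.08 SE, edgeR adjusted p = 0.00195). That call rested on knockout library 3, without which the log2 fold change was 0.18 (adjusted p = 0.53). Cd44 had a log2 fold change of -0.53 (adjusted p = 0.102). Of 13 matrix genes, Col4a1, a basement membrane collagen, rose by 0.28 and Col18a1 fell by 0.47 on the log2 scale, which is 7.69% each way, against 4.94% of all genes that rose and 3.59% that fell. The call on Col4a1 was lost in DESeq2 (adjusted p = 0.340) and without knockout library 1 (0.171) or 3 (0.604). The call on Col18a1 was lost in DESeq2 (adjusted p = 0.229), against nuclei of like depth (log2 fold change -0.26, adjusted p = 0.273) and without knockout library 1 (0.181) or 2 (0.0679).

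**Figure D4:**
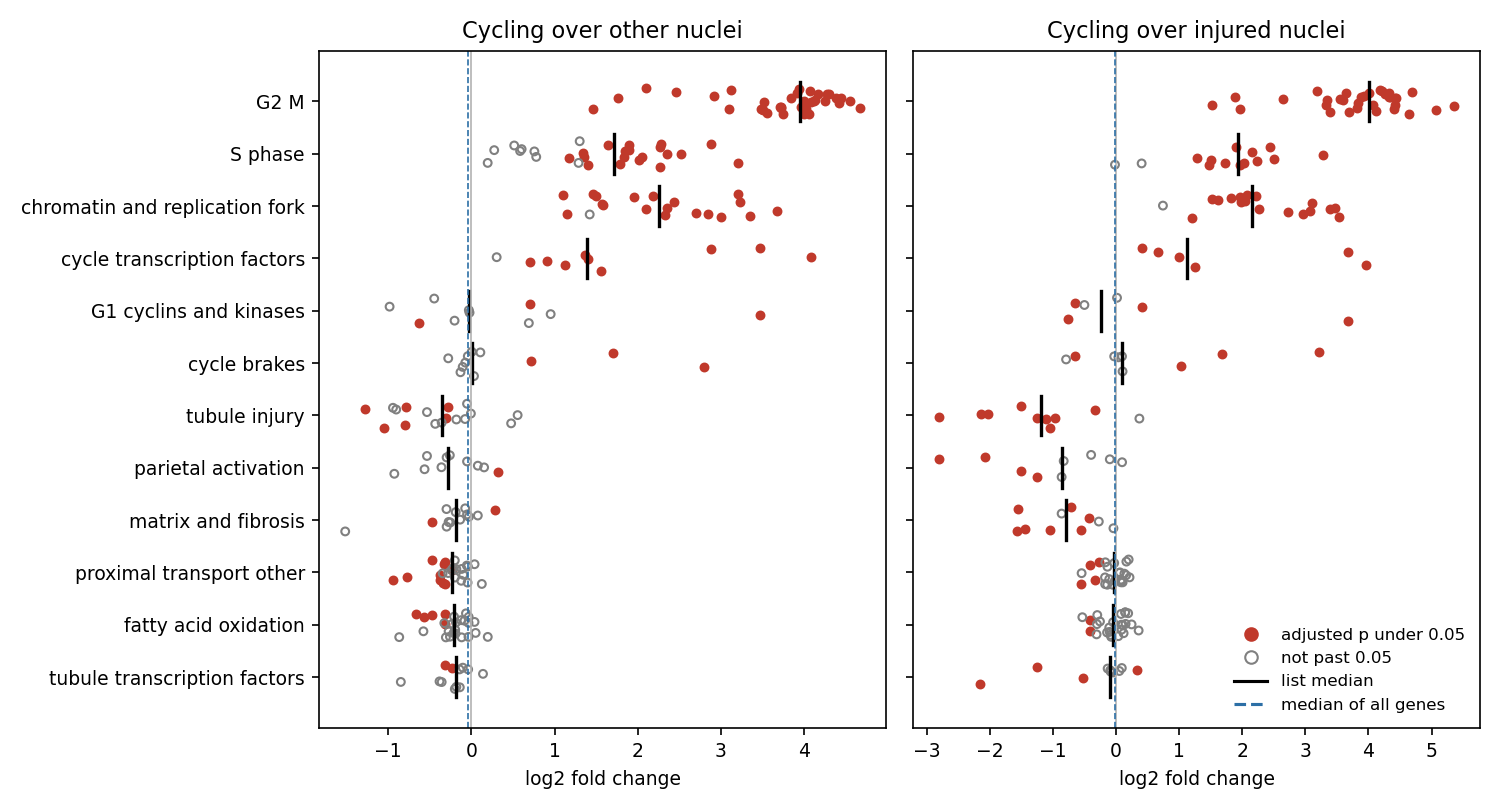
Log2 fold change of each tested gene by list, cycling nuclei over other nuclei (left) and over injured nuclei (right) of the 3 knockout libraries; filled points passed an edgeR adjusted p of 0.05, black bars are list medians and the dashed line is the median of all genes. The G2 and M genes lie to the right of 0 in both comparisons, and 6 of 17 tested injury genes fell on the left panel and 9 of 10 on the right.

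Cycling nuclei were next set against nuclei with injury RNA. Non-cycling nuclei called tubule or unassigned with 2 or more UMIs of Havcr1, Vcam1, Dcdc2a or C3 numbered 1819, 302 and 264 in knockout libraries, and were compared with the cycling nuclei in the same way, with these 4 genes left out too. Of 8645 genes, 515 (5.96%) rose and 549 (6.35%) fell in cycling nuclei. Since the injured nuclei were chosen on injury RNA, genes that go with it are higher there by choice. In both comparisons a gene could pass edgeR's filter on low counts through the sums of either class alone. The share of a list that was called thus depends in part on which members passed that filter. Restricted to nuclei with tubule markers above free RNA, 133 rose and 57 fell, and DESeq2 called 270 that rose and 170 that fell.

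Cell cycle genes rose and injury genes fell in this comparison. All 33 tested G2 and M genes rose (median log2 fold change 4.00), as did 12 of 14 S-phase genes (median 1.93) and all 6 tested cycle transcription factors (median 1.13). These lists hold 36, 30 and 10 genes, and the members not tested did not pass the filter on low counts. Low members could pass it through the cycling nuclei alone. The G2 and M genes share their phase with the rule genes, so their rise again checks the rule and is not a separate finding. Over all genes, 5.96% rose and 6.35% fell, with a median of -0.02. Of 10 tested injury genes 9 (90%) fell and 0 rose, with a median of -1.18. Cd44 fell to 23.9, 14.6 and 45.8 CPM in cycling nuclei, against 194, 190.2 and 193 CPM in injured nuclei (log2 fold change -2.80 ± 0.17 SE, edgeR adjusted p = 1.11e-14). Nrg1, an EGF-family ligand, fell to 336, 409.8 and 593 CPM in cycling nuclei, against 685, 998 and 1137 CPM in injured nuclei (log2 fold change -1.12 ± 0.08 SE). Cdh6 fell to 20.4, 29.3 and 26.9 CPM in cycling nuclei, against 32.2, 152.2 and 81.5 CPM in injured nuclei (log2 fold change -1.50 ± 0.23 SE). Krt8, a simple epithelial keratin, was the tenth and did not pass the test (adjusted p = 0.547). With tubule markers above free RNA 3 of 6 tested injury genes fell, and Cdh6 did not pass the test (adjusted p = 0.463).

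Single genes and the matrix list were also lower in cycling nuclei than in injured nuclei. The 10 genes that fell with the smallest p were Kcnip4, Sytl2, Dock10, Cd44, Birc3, Nrg1, Pdgfd, Creb5, Cp and Samd4. Kcnip4, a potassium channel interacting protein, fell to 152.3, 58.5 and 101 CPM in cycling nuclei, against 893, 785 and 580.5 CPM in injured nuclei (log2 fold change -2.80 ± 0.12 SE, edgeR adjusted p = 5.92e-19). Birc3, an inhibitor of apoptosis induced by NF-kappaB, had 44.3, 29.3 and 20.5 CPM in cycling nuclei against 172, 218 and 109 CPM in injured nuclei. Pdgfd, a PDGF ligand, had 192, 167 and 172 CPM in cycling nuclei against 447, 683 and 417 CPM in injured nuclei. Of 10 matrix genes 7 (70%) fell and 0 rose, against 6.35% and 5.96% of all genes. Among the 7 were Col18a1 (log2 fold change -1.55), Itgav (-1.04), Pdgfb (-1.57) and Lama5 (-0.72). The call on Lama5 was lost in DESeq2 (adjusted p = 0.0559). Among nuclei with tubule markers above free RNA, the calls on Lama5 (adjusted p = 0.331) and Pdgfb (0.368) were lost. Of 9 parietal activation genes 4 (44.4%) fell, against 6.35% of all genes, which were Cd44, Map1b, Cdh6 and Cd9. Map1b had 10.6, 5.85 and 7.90 CPM in cycling nuclei against 35.0, 29.6 and 45.1 CPM in injured nuclei. Cd9 had 30.1, 11.7 and 11.1 CPM against 56.9, 43.7 and 37.6 CPM. Genes this low in cycling nuclei could pass the filter through the injured nuclei, so the share is not read as a result. Of 9 restraints of the cycle 3 (33.3%) rose and 1 (11.1%) fell, against 5.96% and 6.35% of all genes. Those that rose were Cdkn2c, Rbl1 and Cdkn1b. Mdm2, the p53 ligase, fell to 123, 105 and 161.2 CPM in cycling nuclei, against 235, 172 and 157 CPM in injured nuclei. Mdm2 was higher in cycling than in injured nuclei of library 3 and lost its call without knockout library 1 (adjusted p = 0.41).

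Proximal genes were also set against those of injured nuclei. Of 25 transporters 4 fell and 0 rose (median log2 fold change -0.03), and of 25 fatty acid oxidation genes 2 (8.00%) fell and 0 rose (median -0.05), a share near the 6.35% of all genes that fell. Slco1a6, Slc6a18, Abcc4 and Slc22a19 fell, with log2 fold changes between -0.55 and -0.28, while the 2 oxidation genes were Acadm and Ehhadh. Without knockout library 3, and among nuclei with tubule markers above free RNA, 0 transporters and 0 oxidation genes fell. Among tubule transcription factors Maf rose by 0.33 on the log2 scale, and Creb5, Nfat5 and Sox4 fell by 2.16, 0.52 and 1.24. The call on Maf was lost in DESeq2 (adjusted p = 0.418) and without knockout library 1 (0.0992) or 3 (0.114). The call on Sox4 was lost in DESeq2 (adjusted p = 0.379) and without knockout library 3 (log2 fold change -0.82, adjusted p = 0.164), and that on Nfat5 among nuclei with tubule markers above free RNA (log2 fold change -0.12, adjusted p = 0.745). Whether these differences between the comparisons exceed their error was not tested, since both share the cycling nuclei.

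Cycling nuclei of control libraries were too few for a test of genes between the groups. Those called tubule or unassigned numbered 210, 106 and 157 in knockout libraries, against 13, 4 and 4 in control libraries. Their G2 and M genes made up 25.6, 47.9 and 43.0 of 10000 UMIs in knockout libraries, against 50.9, 29.7 and 90.1 in control libraries, so the groups overlapped. S-phase genes made up 9.62, 15.4 and 12.3 in knockout libraries, against 8.32, 8.04 and 37.6 in control libraries. In nuclei that did not meet the rule, the S-phase list stood at 2.91, 4.53 and 3.27 of 10000 UMIs in knockout libraries, against 1.45, 1.96 and 1.69 in control libraries, and these did not overlap. The G2 and M list stood at 2.58, 4.63 and 4.58 in the same nuclei of knockout libraries, against 1.98, 2.53 and 2.53 in control libraries. Cd44 had 23.9, 14.6 and 45.8 CPM in cycling nuclei of knockout libraries and no UMI in those of control libraries, whose summed depth was 49295, 16171 and 15426 UMIs.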

How the data were processed

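Nuclear RNA of mouse kidney cortex was measured in 6 single-nucleus libraries, 3 per genotype. The authors deposited whole-number UMI counts per gene and barcode for 31053 genes, and the file headers name Cell Ranger 3.1.0 as their writer; the submitters' processing notes give build mm10. Intronic counting and the barcode filter are not given in the sources used here. The members and lists were chosen with earlier results of these data known. Barcodes with 300 or more genes and at most 5% mitochondrial UMIs were kept. Doublets were kept in the reported values, and Scrublet (scanpy 1.11.5) scores served an alternative.

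Lineage was first assigned against the mean marker share of all nuclei of the other lineages, which left 68.8% of nuclei unassigned. After the data were seen, the tubule free-RNA share was instead taken from nuclei with 5 or more UMIs of another lineage, and the share of each other list from nuclei with fewer than 5 of its UMIs. This still left 16194 of 33215 knockout and 16245 of 28724 control nuclei unassigned. A second list with a tail of 0.001 or less made a nucleus a 2-lineage one. The gene comparisons took tubule and unassigned nuclei for the same reason, while the plan took tubule nuclei only. Sums per library were fitted with edgeR 4.0.16 in R 4.3.3 (TMM, filterByExpr, library block), with DESeq2 1.42.0 as an alternative. On simulated data with a log2 change of 2 in genes of higher count, edgeR recovered 171 of 196 changed genes with 4 false calls. The simulated libraries shared a profile and a fixed dispersion. They do not measure the error of the calls reported here, many of which are smaller changes. Named genes were the 10 with the smallest adjusted p in each direction, leaving out clone names, and up to 4 per list past an adjusted p of 0.05. Where none of a list passed, up to 2 could be named, and Mybl2, Cdkn1a, Krt8 and the per-lineage genes were named after their values were seen. Libraries of the same number deviated together (correlations of 0.617, 0.344 and 0.365 over 16293 genes), so the numbers were taken as pairs by a rule of 0.1. Knockout 2 correlated as well with control 3 (0.409) and knockout 3 with control 2 (0.284), so the correlations set the libraries numbered 1 apart and do not tell pairs 2 and 3. Alternatives were other thresholds, thinning, doublet removal, scaling, filters, lineage rules, depth and each library left out.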

Additional observations from a re-analysis of the deposited data

How the results depend on the processing

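The difference in cycling share, 2.05 percentage points, was positive in each alternative, between 0.584 with 5 or more UMIs over 3 or more genes and 2.76 with 2 or more UMIs, and between 1.68 and 2.53 with a library left out. The panel difference of 2.88 points lay between 1.32 after thinning and 3.86 with 2 or more UMIs, and between 2.41 and 3.56 with a library left out. With the replicate block, the exact sign-flip test over 3 pairs gave p = 0.25 for the share, its smallest value. The counts of genes depended on the lineage rule and the block. Against other nuclei, 654 rose and 475 fell, compared with 217 and 2 without the library block, 276 and 164 under lineage by the highest marker ratio alone, 87 and 55 under the planned lineage, and 293 and 178 among nuclei with tubule markers above free RNA. DESeq2 left 126 that fell. With a library left out, 448 to 524 rose and 186 to 353 fell. Against injured nuclei, 515 rose and 549 fell, compared with 270 and 170 in DESeq2, 209 and 90 without the block, 165 and 102 under the highest marker ratio, 10 and 10 under the planned lineage, and 133 and 57 above free RNA. With a library left out, 448 to 482 rose and 401 to 418 fell. The planned lineage and the nuclei above free RNA leave fewer nuclei and genes, and for the highest marker ratio the cause was not tested. Against other nuclei, the log2 change of Havcr1 was 0.42 under the highest marker ratio and 0.64 under the planned lineage. Under the planned lineage Slco1a6 was 0.027, Col4a1 -0.12 and, against injured nuclei, Nfat5 0.11. Of the 53 genes named against other nuclei, 21 kept their call without the block, 43 in DESeq2, 53 after Scrublet removal, 40 above free RNA and 42 without knockout library 3. Under the planned lineage 25 of the 49 tested kept it and 3 were reversed. A fit of cycling nuclei between genotypes, and its alternatives, was not run, because 2 of the 3 control libraries held under 10 such nuclei.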
